A study of Mus musculus with 24 samples.

Results

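The PARP family transfers ADP-ribose from NAD+ onto proteins and nucleic acids. The members were taken by gene symbol: Parp1, Parp2, Parp3, Parp4, Parp6, Parp9, Parp10, Parp11, Parp12 and Parp14. All 10 were found among the 54658 gene symbols of each count table, and all 10 passed the low-count filter in each tissue. Because each transfer uses up a molecule of NAD+, these enzymes are among the main consumers of the metabolite that β-nicotinamide mononucleotide (β-NMN), an NAD+ precursor, feeds. Parp1, Parp2 and Parp3 are nuclear enzymes that respond to DNA breaks, and Parp1 and Parp2 build chains of ADP-ribose. Parp9, Parp10, Parp11, Parp12 and Parp14 are known as interferon-induced genes, which macrophages switch on after sensing bacteria or viruses, and those of them that are active add single ADP-ribose units.

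RNA was sequenced from 24 samples of 18 mice, all C57BL/6 males 7 to 12 weeks old, with 185 mg/kg/day of β-NMN or vehicle (saline) given intraperitoneally and the last dose 24 h before sacrifice. In the first experiment, 1 mL of thioglycollate (TGC), an irritant that draws leukocytes into the peritoneum without infection, was injected, and the lavaged peritoneal cells of 6 vehicle and 6 β-NMN mice were stimulated in culture with E. coli for 6 h. In the second, hearts and lungs came from the same 3 vehicle and 3 β-NMN mice after cecal ligation and puncture (CLP), which releases gut bacteria into the abdomen. Every sample had therefore met bacteria, and unstimulated cells and sham-operated mice were not analysed here. The source label of the organs names TGC, while their titles and tissue labels name CLP, and 2 β-NMN hearts carry the number 3. One of the pair shares its mouse name with lung number 2 and was therefore given that number.

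Total counts ranged from 31126823 to 112456050 in peritoneal cells, from 27319513 to 68523239 in hearts and from 8915366 to 28356786 in lungs. Their median in peritoneal cells was 77248114 with vehicle and 45607088 with β-NMN. Macrophage markers summed to 7260 to 13622 CPM (counts scaled to a library of 1000000) in peritoneal cells, cardiomyocyte markers to 28651 to 53726 CPM in hearts and lung epithelial markers to 58088 to 103060 CPM in lungs. Both organs of vehicle replicate 2 stood apart from the other libraries of their organ, with a standard deviation of log2 CPM from the others of 0.99 in heart (0.39 to 0.58 elsewhere) and 1.57 in lung (0.45 to 0.60 elsewhere). Fold changes of members that moved by over 1.5 times, turned sign or changed call without these libraries are also given without them for hearts, lungs and the comparison of the organs.

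The first question was how abundant each member was. To compare members, CPM was divided by the summed length of the annotated exons of each gene in kilobases. In vehicle peritoneal cells Parp14, a mono-ADP-ribosyltransferase with macrodomains that bind ADP-ribose, was the highest, at 290.3 ± 47.7 CPM per kb (SD, n = 6). Parp12, which carries zinc fingers and a WWE domain, followed at 121.2 ± 17, then Parp9, the partner of the ubiquitin ligase Dtx3l, at 81.3 ± 9.34, and Parp10, a mono-ADP-ribosyltransferase, at 54.4 ± 11.6 CPM per kb. These 4 members, grouped after their values were seen, held 94.7% of the summed level of the family. Parp11, an enzyme linked to the nuclear envelope, had 10.3 ± 1.78 CPM per kb, Parp4, the vault PARP, 8.94 ± 1.61, Parp3 5.58 ± 0.95, and Parp2 3.07 ± 0.23. The lowest levels were those of Parp1, the family's best known enzyme, at 1.60 ± 0.35 CPM per kb, and Parp6, a mono-ADP-ribosyltransferase, at 1.18 ± 0.07. Among the 9 pairs of neighbours in this order, the vehicle ranges overlapped in 3, Parp11 and Parp4, Parp4 and Parp3, and Parp1 and Parp6. The other neighbours kept their order in all 12 peritoneal libraries, those with β-NMN included.

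**Figure D1:**
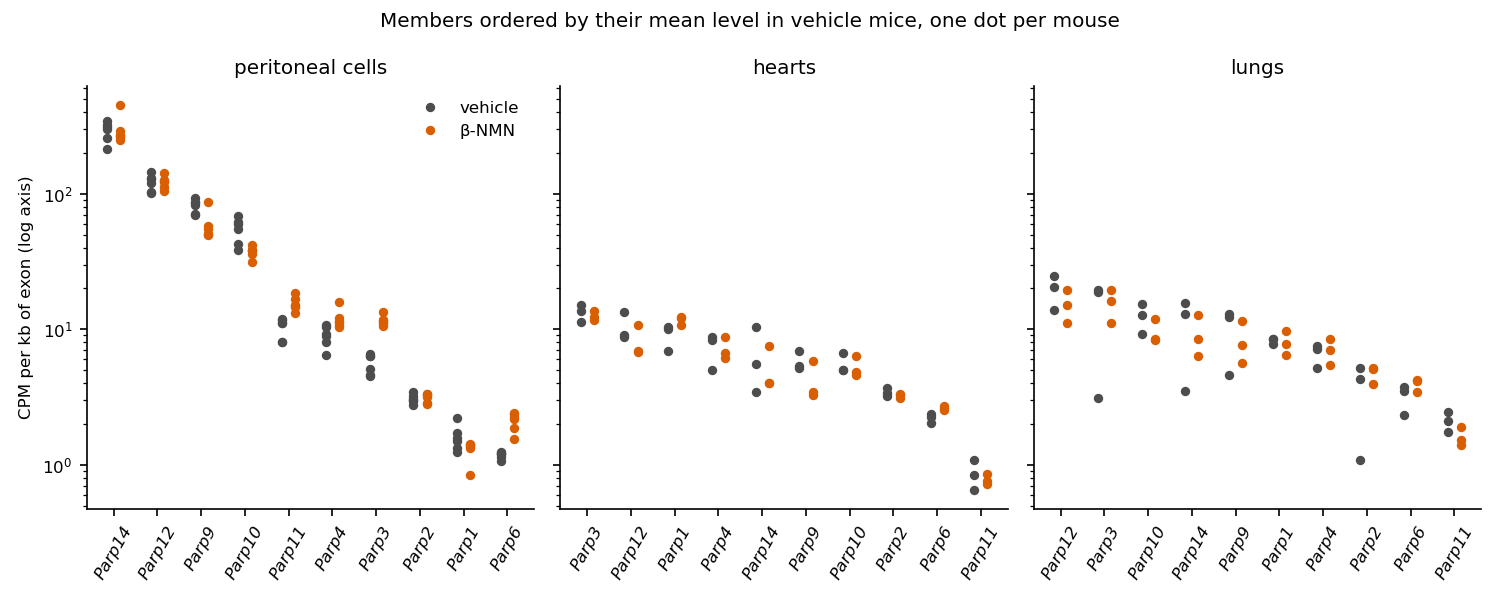
Level of each PARP member in CPM per kb of exon on a log axis, in peritoneal cells, hearts and lungs, with members ordered by their vehicle mean in each tissue and 1 dot per mouse. Parp14 led the peritoneal cells at a vehicle mean of 290.3, while no member exceeded a vehicle mean of 13.4 in hearts or 19.8 in lungs.

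In the organs the levels lay closer together. In vehicle hearts, Parp3 had 13.4 ± 1.93 CPM per kb (SD, n = 3), Parp12 10.4 ± 2.67, Parp1 9.11 ± 1.91 and Parp4 7.36 ± 2.04. Parp14, at 6.46 ± 3.54, Parp9, at 5.83 ± 0.96, and Parp10, at 5.58 ± 0.97, came next. Parp2, at 3.41 ± 0.24, Parp6, at 2.22 ± 0.18, and Parp11, at 0.86 ± 0.22, closed the order. The vehicle ranges of 6 of the 9 neighbouring pairs overlapped, and only the steps from Parp10 down to Parp11 were free of overlap. In vehicle lungs, Parp12 had 19.8 ± 5.50 CPM per kb, Parp3 13.9 ± 9.31, Parp10 12.5 ± 3.09, Parp14 10.7 ± 6.36, Parp9 9.97 ± 4.69 and Parp1 8.22 ± 0.43. They were followed by Parp4 at 6.61 ± 1.26, Parp2 at 3.51 ± 2.15, Parp6 at 3.19 ± 0.76 and Parp11 at 2.09 ± 0.35, and 7 of the 9 neighbouring pairs overlapped. Parp14, Parp12, Parp9 and Parp10 together held 43.8% of the family's summed level in vehicle hearts and 58.5% in vehicle lungs. Peritoneal cells and organs are in separate tables scaled separately, so their levels are only set side by side.

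The second question was whether β-NMN changed these genes in the stimulated peritoneal cells. By edgeR's quasi-likelihood test, 4 members rose (Parp3, Parp6, Parp11 and Parp4) and 2 fell (Parp9 and Parp10), while Parp1, Parp2, Parp12 and Parp14 did not pass at an adjusted p below 0.05. In this tissue 51.6% of the 14985 genes tested were called, 23.7% as higher and 27.9% as lower, so that a count of 6 of 10 members lies near the background. The groups did not overlap for 3 members, against 26.6% of all genes. Across the members the median log2 change was 0.04, beside -0.02 across every gene tested. In these bulk samples, fewer cells of a type and less RNA per cell cannot be told apart.

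Parp3, a mono-ADP-ribosyltransferase of break repair, had the largest change. Its level ranged from 16.8 to 24.5 CPM with vehicle (median 21.1) and from 39.2 to 49.6 CPM with β-NMN (median 42.6). Every β-NMN sample lay above every vehicle sample, and the fold change was 2.09 (log2 1.06, SE 0.11, edgeR adjusted p = 2.52e-06). The exact permutation test gave p = 0.00216, the smallest that 6 against 6 allow. Parp3 lies on chromosome 9, 106470322 to 106476949, on the minus strand of GRCm38, and shares 20 exonic bases with Rrp9 on the other strand.

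Parp6 rose in the same manner from a lower level. It had 8.24 to 9.69 CPM with vehicle (median 9.30) and 12.1 to 18.7 CPM with β-NMN (median 17.1), again without overlap. The fold change was 1.78 (log2 0.84, SE 0.11, edgeR adjusted p = 2.07e-05), and the exact permutation test gave p = 0.00216. Parp6 lies on chromosome 9 as well, at 59617284 to 59650285 on the plus strand.

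Parp11 and Parp4 rose by smaller amounts. Parp11 had 56.5 to 83.3 CPM with vehicle (median 78.2) and 92.7 to 129.6 CPM with β-NMN (median 105.8), so that the groups did not overlap. Its fold change was 1.50 (log2 0.58, SE 0.12, edgeR adjusted p = 8.36e-04), with an exact permutation p of 0.00216. Parp4 had 41.9 to 70.6 CPM with vehicle (median 58.9) and 68.2 to 103.0 CPM with β-NMN (median 74.8), and 4 of the 6 β-NMN samples lay above all vehicle samples. Its fold change was 1.34 (log2 0.42, SE 0.13, edgeR adjusted p = 0.0134, exact permutation p = 0.00866). Over 20 alternative fits the log2 fold change of Parp4 ranged from 0.15 to 0.72, and 19 of them kept the call.

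The 250 bases before the start of Parp4 and of Parp11 are shown because, among the members with an entry in the promoter table, only theirs held the core of the interferon-stimulated response element (ISRE), the DNA word bound by interferon-activated factors. That table, from RefSeq on GRCm38.p6 matched 7 of the 10 members with 8 start sites, and Parp9, Parp10 and Parp14 had no entry. GAAANNGAAA, searched on both strands, was present in 2 of these 8 windows, beside 2.98% of 32851 windows of the same length for all genes. Capitals mark the matches, which are a pair overlapping by 4 bases on the plus strand from base -150 to -135 in Parp4, and a match on the minus strand from -44 to -35 in Parp11.
Parp4, chr14:56575369-56575618, plus strand: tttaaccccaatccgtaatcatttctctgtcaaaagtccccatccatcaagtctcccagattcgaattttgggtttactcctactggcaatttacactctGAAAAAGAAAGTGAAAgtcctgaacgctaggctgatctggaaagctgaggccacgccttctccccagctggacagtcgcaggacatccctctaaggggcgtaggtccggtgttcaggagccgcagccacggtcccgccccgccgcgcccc
Parp11, chr6:127446590-127446839, plus strand: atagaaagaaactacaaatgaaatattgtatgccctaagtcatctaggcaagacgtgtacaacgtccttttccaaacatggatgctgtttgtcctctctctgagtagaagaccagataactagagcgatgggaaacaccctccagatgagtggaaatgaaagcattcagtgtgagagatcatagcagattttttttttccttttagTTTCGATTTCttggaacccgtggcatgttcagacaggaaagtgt
A second Parp11 start lies downstream on the same strand (window chr6:127453377-127453626) and held no match, nor did the windows of Parp1, Parp2, Parp3, Parp6 and Parp12. The word of the interferon-gamma-activated site, TTCNNNGAA, was present in 1 of the 8 windows, the same upstream window of Parp11, from -37 to -29, and in 7.02% of all windows, and it shares 3 bases with the ISRE match. Parp4 and Parp11, which hold the ISRE core, rose in peritoneal cells, as did Parp3 and Parp6, which do not hold it in this window.

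Parp9 and Parp10 were the members that fell. Parp9 had 339.4 to 455.6 CPM with vehicle (median 407.5) and 243.4 to 423.8 CPM with β-NMN (median 256.8). In 5 of the 6 β-NMN samples it lay below every vehicle sample, and the exception was β-NMN replicate 6. The fold change was 0.72 (log2 -0.48, SE 0.14, edgeR adjusted p = 0.00884, exact permutation p = 0.0152), and -0.60 on the log2 scale without that replicate. Among the 7 libraries under 60000000 counts Parp9 missed the call, at -0.41 and an edgeR adjusted p of 0.154. Parp10 had 164.9 to 293.6 CPM with vehicle (median 245.4) and 134.7 to 180.3 CPM with β-NMN (median 162.9), with 5 of 6 β-NMN samples below all vehicle samples. Its fold change was 0.69 (log2 -0.54, SE 0.13, edgeR adjusted p = 0.00296, exact permutation p = 0.00433). Among the 5 libraries over 60000000 counts the calls of Parp10 (log2 -0.37, edgeR adjusted p = 0.156) and Parp4 (0.15, 0.440) were missed. Parp10 shares 205 exonic bases, 4.80% of its exon length, with Plec on the same strand.

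Parp9 and Dtx3l, which encodes its ubiquitin ligase partner, lie head to head on chromosome 16 and share 458 exonic bases on opposite strands (9.40% of the exons of Parp9), and Parp14 lies 54967 bases away from Dtx3l. These neighbours differed in their values. Dtx3l had a median of 623.8 CPM with vehicle and 514.5 CPM with β-NMN and did not pass (log2 fold change -0.05, SE 0.12, edgeR adjusted p = 0.738). Parp14 had 1981 to 3201 CPM with vehicle (median 2832) and 2319 to 4190 CPM with β-NMN (median 2506), a log2 fold change of 0.04 (95% confidence interval -0.29 to 0.37, edgeR adjusted p = 0.840). The strand setting of the counting is unknown here, and reads of the stretch that Parp9 shares with Dtx3l could have gone to either gene.

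The remaining members did not pass. Parp12 had 401.6 to 575.0 CPM with vehicle and 418.5 to 569.6 CPM with β-NMN, a log2 fold change of 0.01 (95% confidence interval -0.22 to 0.24). Parp2 had 10.0 to 12.5 CPM and 10.2 to 12.1 CPM, a log2 fold change of 0.03 (-0.16 to 0.22). Parp1 had 6.58 to 11.7 CPM with vehicle (median 8.14) and 4.47 to 7.56 CPM with β-NMN (median 7.27), a log2 fold change of -0.31 (-0.64 to 0.03, edgeR adjusted p = 0.113). The lowest Parp1 value was that of β-NMN replicate 6, and without it the log2 fold change was -0.18. Limma-voom with quality weights called Parp1, with an adjusted p of 0.0492. Beside these values, all 6 T and NK cell markers fell in peritoneal cells. Their summed level ranged from 8.94 to 36.5 CPM with vehicle and from 2.67 to 5.75 CPM with β-NMN. Of the other lists, 4 of 6 neutrophil markers fell and 1 rose (sums of 474.2 to 980.2 and of 326.5 to 455.4 CPM), 2 of 4 B cell markers fell, and 3 of 8 macrophage markers rose while Cd14 fell. The neutrophil marker of highest median, Csf3r (421.9 CPM), was at -0.58 on the log2 scale. Ly6g was at -4.77, S100a8 at -5.00 and S100a9 at -5.31, while Retnlg rose (1.38) and Mpo was not called (0.54). The median of total counts was lower with β-NMN, but the ranges overlapped (31126823 to 112456050 with vehicle and 36353254 to 90903671 with β-NMN). The part of the markers and of depth in the PARP values was not tested.

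**Figure D2:**
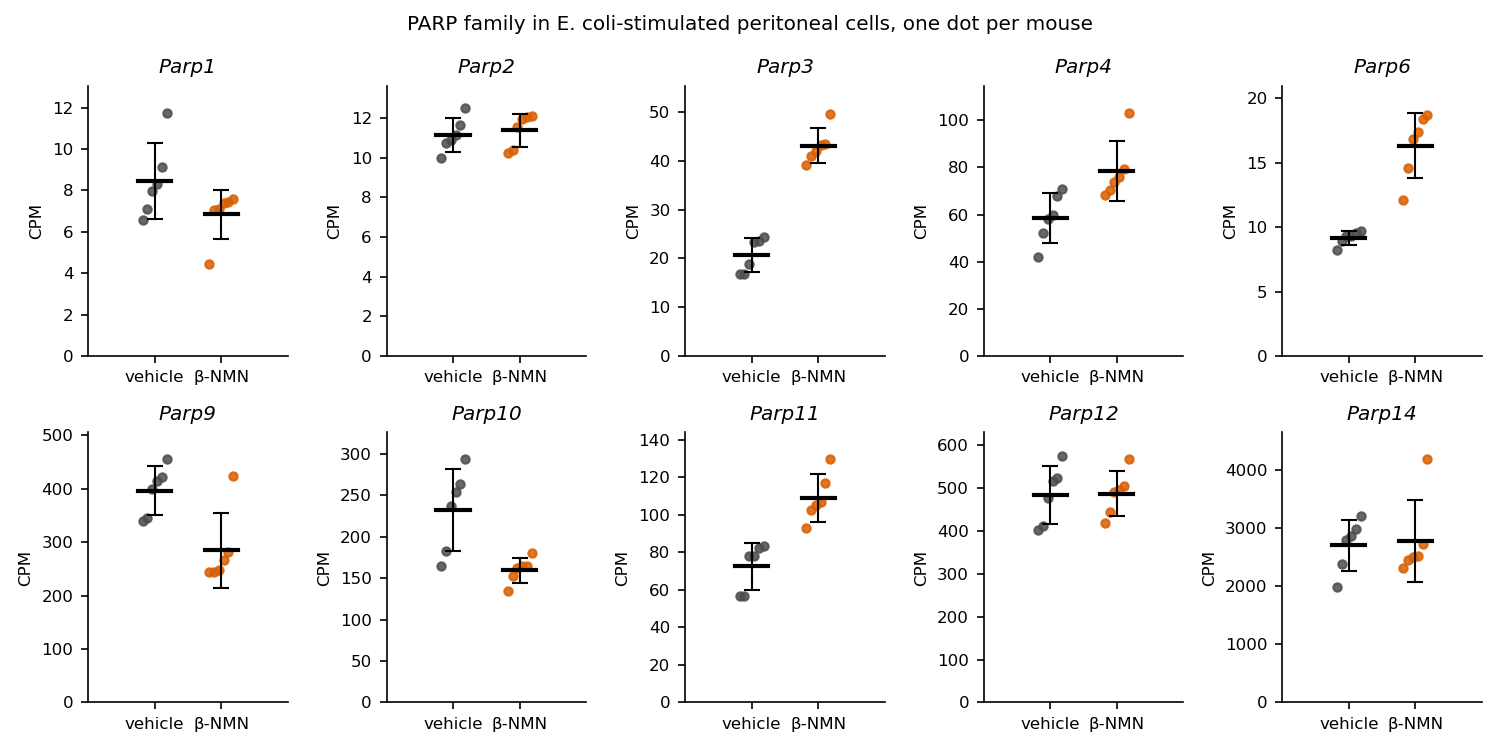
CPM of each PARP member in E. coli-stimulated peritoneal cells of 6 vehicle and 6 β-NMN mice, 1 dot per mouse, with the mean as a line and the SD as an error bar on linear axes from 0. The groups were free of overlap for Parp3, Parp6 and Parp11, and the single β-NMN mouse far from the rest in Parp1, Parp4, Parp9 and Parp14 is replicate 6.

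How the members varied together within a treatment was described by correlating log2 CPM after subtracting each group's mean, over 12 peritoneal libraries that share their depth and scaling with both genes of a pair. Among the 10 pairs formed by Parp9, Parp10, Parp11, Parp12 and Parp14, Pearson's r ranged from 0.54 to 0.91, with Parp9 and Parp14 at the top. The other 35 pairs ranged from -0.65 for Parp6 and Parp9 to 0.88 for Parp4 and Parp14. Without β-NMN replicate 6 the ranges were 0.61 to 0.91 and -0.24 to 0.84, and Parp6 and Parp9 were at 0.097, so their negative value rested on that library. Thus Parp11 and Parp9 varied together within groups (r = 0.71) although one rose and the other fell with β-NMN. The 3 genes most like each member over the same libraries were named by r alone, with no test, among the 6829 other genes (6830 for Parp1) whose log2 CPM averaged 3 or more. They were Ifit1bl2 (r = 0.99), Azi2 (0.98) and Acod1 (0.97), which makes itaconate, for Parp9, and Psmb9 (0.96), an immunoproteasome subunit, Aste1 (0.96) and Trafd1 (0.94) for Parp10. For Parp11 they were Tgtp2 (0.98), Prr5l (0.98) and Max (0.97), for Parp12 Nudt13, Ppp2r5a and Alpk1 (0.96 each), and for Parp14 Ankfy1 (0.98), Vcpip1 (0.97) and Dnajc13 (0.97). For Parp3 they were Plekhf2 (0.93), Irf5 (0.92) and Mob3b (0.92), for Parp4 Ep300 (0.98), Ep400 and Xrn1 (0.97 each), for Parp6 H2-DMb1 (0.93), Aup1 (0.92) and Rfc2 (0.89), and for Parp2 Zgpat (0.90), Mreg (0.86) and Smad3 (0.85). For Parp1 they included Gzma (0.95), a granzyme of cytotoxic lymphocytes, and Sash3 (0.92), an adaptor of lymphocyte signaling.

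**Figure D3:**
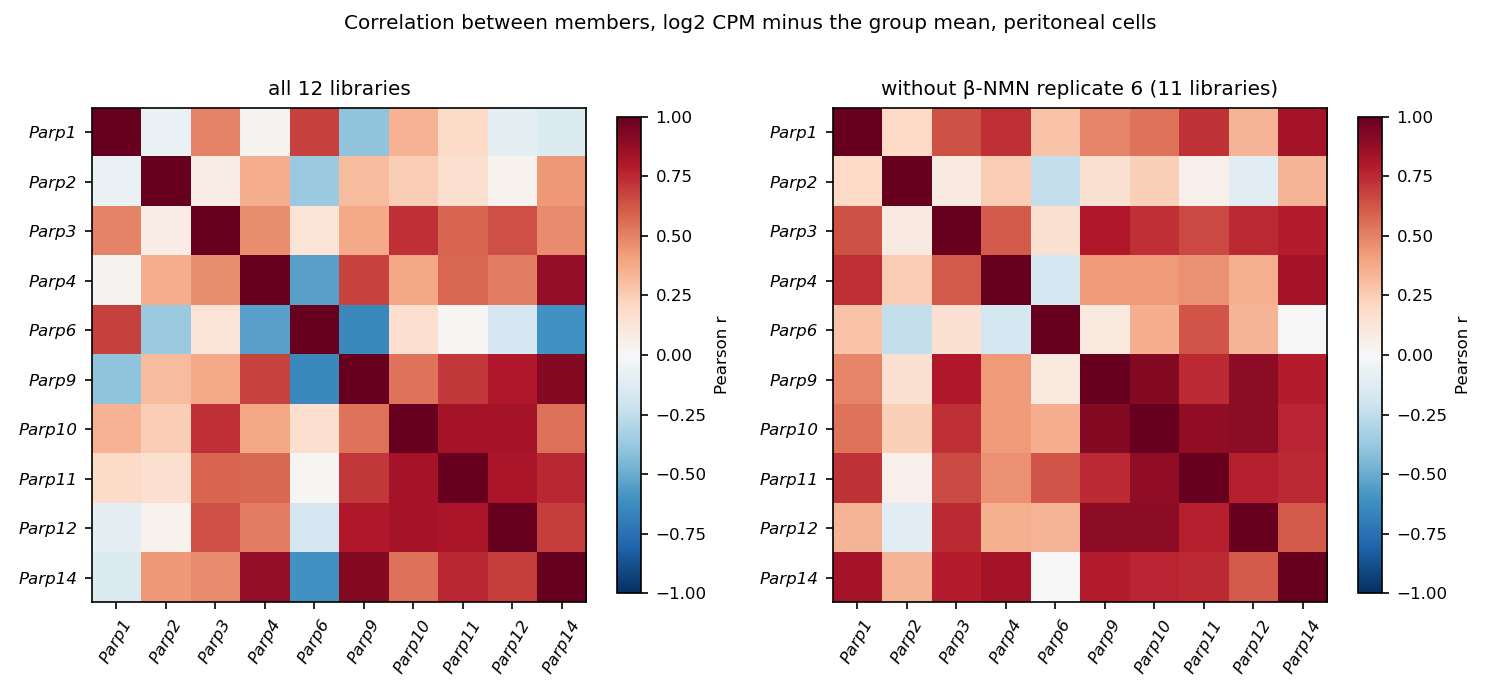
Pearson's r between PARP members over peritoneal libraries, computed on log2 CPM minus the group mean, for all 12 libraries and for the 11 without β-NMN replicate 6. Red marks positive and blue negative values, and the block of Parp9 to Parp14 stayed at or above 0.54 in both panels. Without β-NMN replicate 6, Parp3 had values of 0.66 to 0.80 with the members of that block.

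Genes that act beside the family were counted in the same fit. Among 6 other ADP-ribosyltransferases, Tnks, a tankyrase, rose (log2 fold change 0.51, SE 0.16, edgeR adjusted p = 0.0161) and Zc3hav1, the antiviral RNA-binding protein ZAP, fell (-0.34, SE 0.13, 0.0362, a call kept in 2 of 12 fits that left out 1 library), while Tiparp, which the aryl hydrocarbon receptor induces, was at 0.21 and did not pass. Among 7 genes that remove ADP-ribose or its breakdown products, Macrod1, a hydrolase of mono-ADP-ribose, rose (0.71, SE 0.16, 0.00218) and Adprh, which frees arginines, fell (-0.29, SE 0.07, 0.00479). Parg, which breaks the chains, had 14.3 to 19.1 CPM with vehicle and 15.1 to 21.3 CPM with β-NMN and did not pass (0.06, 0.630), nor did Nudt16 (0.23) and Adprhl2 (-0.01). Among 11 genes of break repair linked to Parp1, 2 fell, and Fen1, a flap endonuclease, was one of them (-1.06, SE 0.33, 0.0134), at levels under 1 CPM. Tdp1 (0.36) and Aptx (0.26) did not pass. These 3 lists had 33.3%, 28.6% and 18.2% of their members called, beside the background of 51.6%. The counts depended on single libraries. Without vehicle replicate 3 or without β-NMN replicate 6, 3 of the 11 repair genes rose and 2 fell, and 3 of 7 removal genes were called. The repair list had 4 genes called without vehicle replicate 1 or β-NMN replicate 5. Leaving out any library but vehicle replicate 3 or β-NMN replicate 6 left 1 of the 6 other ADP-ribosyltransferases called.

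Of 25 interferon-induced genes, 8 rose, 2 fell and 15 did not pass (40% called, with a median log2 fold change of 0.14 beside -0.02 for all genes). Leaving out vehicle replicate 1 moved this median to 0.22, and leaving out β-NMN replicate 6 moved it to 0.08. Mx1, an antiviral GTPase, rose from a median of 1004 to 2145 CPM (1.25, SE 0.17, edgeR adjusted p = 3.11e-05) and Mx2 from 238.4 to 466.5 CPM (1.02, SE 0.13, 2.12e-05), both without overlap. Irf9 fell (-0.46, SE 0.09, 5.98e-04), as did Stat2 (-0.26, SE 0.10, 0.0379, a call kept in 2 of 12 fits that left out 1 library), and these encode subunits of the factor that binds the ISRE. Of the 5 interferon-induced PARP members, 1 rose (Parp11), 2 fell (Parp9 and Parp10) and 2 were not called (Parp12 and Parp14).

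The third question was whether β-NMN changed the family in the organs of mice with CLP. In hearts, none of the 10 members passed, and 0% of the 16245 genes tested were called by edgeR (1837 at an unadjusted p below 0.05, 262 by DESeq2, which called none of the members). An exact permutation test of 3 against 3 cannot give a p below 0.1. The log2 fold changes of the members ranged from -0.48 to 0.37 with SE of 0.12 to 0.43, and 8 of 10 were below 0. The groups did not overlap for 2 members, beside 23.1% of all genes. Parp1 had 53.0, 36.7 and 55.1 CPM with vehicle and 65.3, 64.6 and 57.1 CPM with β-NMN. All β-NMN hearts were above all vehicle hearts, with a log2 fold change of 0.37 (SE 0.17, edgeR adjusted p = 0.443) that was 0.20 without vehicle replicate 2. Parp6 had 17.4, 15.8 and 18.5 CPM with vehicle and 21.2, 20.4 and 19.8 CPM with β-NMN, again without overlap (0.25, SE 0.12, edgeR adjusted p = 0.443). Parp9 had 26.1, 25.3 and 33.8 CPM with vehicle and 15.8, 16.7 and 28.2 CPM with β-NMN, so that the third β-NMN heart lay among the vehicle hearts (-0.48, SE 0.25, edgeR adjusted p = 0.457). Its value ranged from -0.80 without that heart to -0.33 without β-NMN replicate 1. The same heart had the highest Parp14 of its group, at 69.7 CPM beside 37.1 and 37.4, while the vehicle hearts had 51.7, 32.3 and 96.5 CPM (-0.32, SE 0.43). Parp12 was at -0.35 (SE 0.25), Parp11 at -0.15 (0.22), Parp3 at -0.09 (0.14), Parp10 at -0.09 (0.18), Parp2 at -0.08 (0.12) and Parp4 at -0.03 (0.24). Without vehicle replicate 2, Parp14 was at -0.63, Parp12 at -0.47, Parp11 at -0.31, Parp4 at -0.25, Parp3 at -0.21, Parp10 at -0.16 and Parp2 at -0.03. Leaving out vehicle replicate 3 instead moved Parp12 to -0.11 and Parp10 to 0.07. Over all fits that left out 1 heart, Parp14 reached 0.20, Parp4 0.11 and Parp11 0.058. Beside these values, cardiomyocyte markers summed to 28651 to 46847 CPM in vehicle hearts and to 49421 to 53726 CPM with β-NMN, with none of the 5 markers called. Neutrophil markers summed to 17.8 to 32.1 CPM in vehicle hearts and to 12.2 to 13.4 CPM with β-NMN, again without overlap and with none of the 4 markers tested called. The part of these cell types in the PARP values was not tested.

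**Figure D4:**
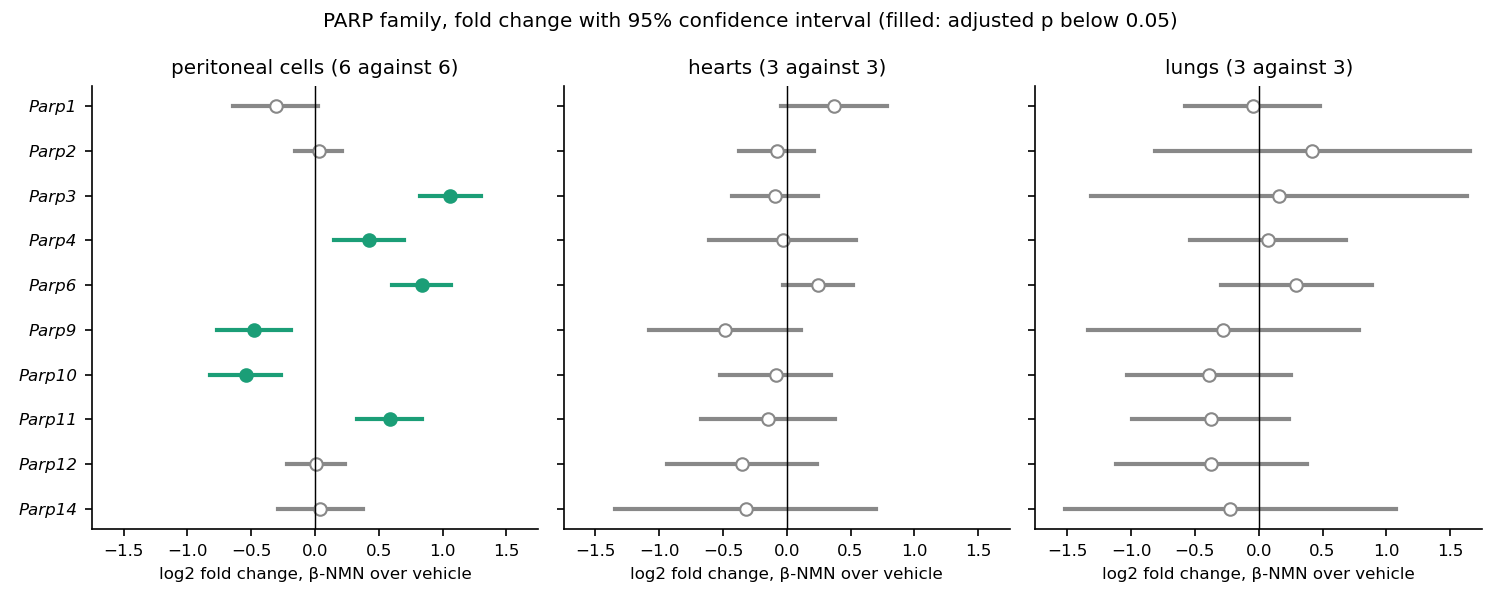
Log2 fold change of each PARP member, β-NMN over vehicle, with its 95% confidence interval in peritoneal cells, hearts and lungs. Filled green points have an adjusted p below 0.05 and were found in peritoneal cells alone, for 6 of 10 members, and every interval in hearts and lungs spans 0.

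In lungs, none of the 10 members passed either, and 0% of the 17008 genes tested were called by edgeR (301 at an unadjusted p below 0.05, 9 by DESeq2). The log2 fold changes of the members ranged from -0.39 to 0.42, with SE of 0.22 to 0.62. The groups overlapped for all 10 members, beside 8.21% of all genes without overlap. The lung of vehicle replicate 2, with the fewest counts, set much of this spread. Parp3 had 69.8, 11.6 and 72.5 CPM with vehicle and 41.3, 59.3 and 72.2 CPM with β-NMN, a log2 fold change of 0.16 that was -0.30 without that lung. Parp2 had 18.7, 3.90 and 15.6 CPM with vehicle and 14.4, 18.5 and 18.8 CPM with β-NMN (0.42, SE 0.52, and 0.01 without that lung, where it had 27 reads). Parp14 had 120.6, 32.5 and 144.9 CPM with vehicle and 59.0, 78.8 and 118.3 CPM with β-NMN. The vehicle lung at 32.5 CPM was again replicate 2. Without it, Parp14 moved from -0.22 to -0.63, Parp9 from -0.28 to -0.62, Parp12 from -0.37 to -0.57 and Parp10 from -0.39 to -0.56, with an edgeR adjusted p of 0.991 for each. Other libraries moved them the opposite way. Without vehicle replicate 3, Parp14 was at 0.16, Parp9 at -0.09, Parp12 at -0.16 and Parp10 at -0.19, and without vehicle replicate 1 Parp9 was at -0.03. Parp10 had 54.3, 39.7 and 66.1 CPM with vehicle and 35.5, 36.5 and 50.5 CPM with β-NMN, and 2 of 3 β-NMN lungs lay below all vehicle lungs. Parp11 was at -0.38 (SE 0.26), Parp6 at 0.30 (0.25), Parp4 at 0.07 (0.26) and Parp1 at -0.05 (0.22). Without the lung of vehicle replicate 2, Parp11 was at -0.25, Parp6 at 0.11, Parp4 at -0.08 and Parp1 at -0.09. Macrophage markers summed to 1390.5 to 4376 CPM in vehicle lungs and to 5054 to 5505 CPM with β-NMN, with none of the 8 markers called. Lyz2 had the largest share, with a median of 4291 CPM beside at most 94.9 CPM for the others. Its log2 fold change was 0.76. Adgre1 was at 0.51, Csf1r at 0.45 and Mertk at 0.09, but Itgam at -0.96, Cd14 at -0.55, Fcgr1 at -0.30 and Cd68 at -0.02. Cardiomyocyte markers in lungs summed to 227.1 to 309.4 CPM with vehicle and to 64.4 to 223.6 CPM with β-NMN, also without overlap and with none of the 4 markers tested called. The part of both marker lists in the PARP values was not tested.

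**Figure D5:**
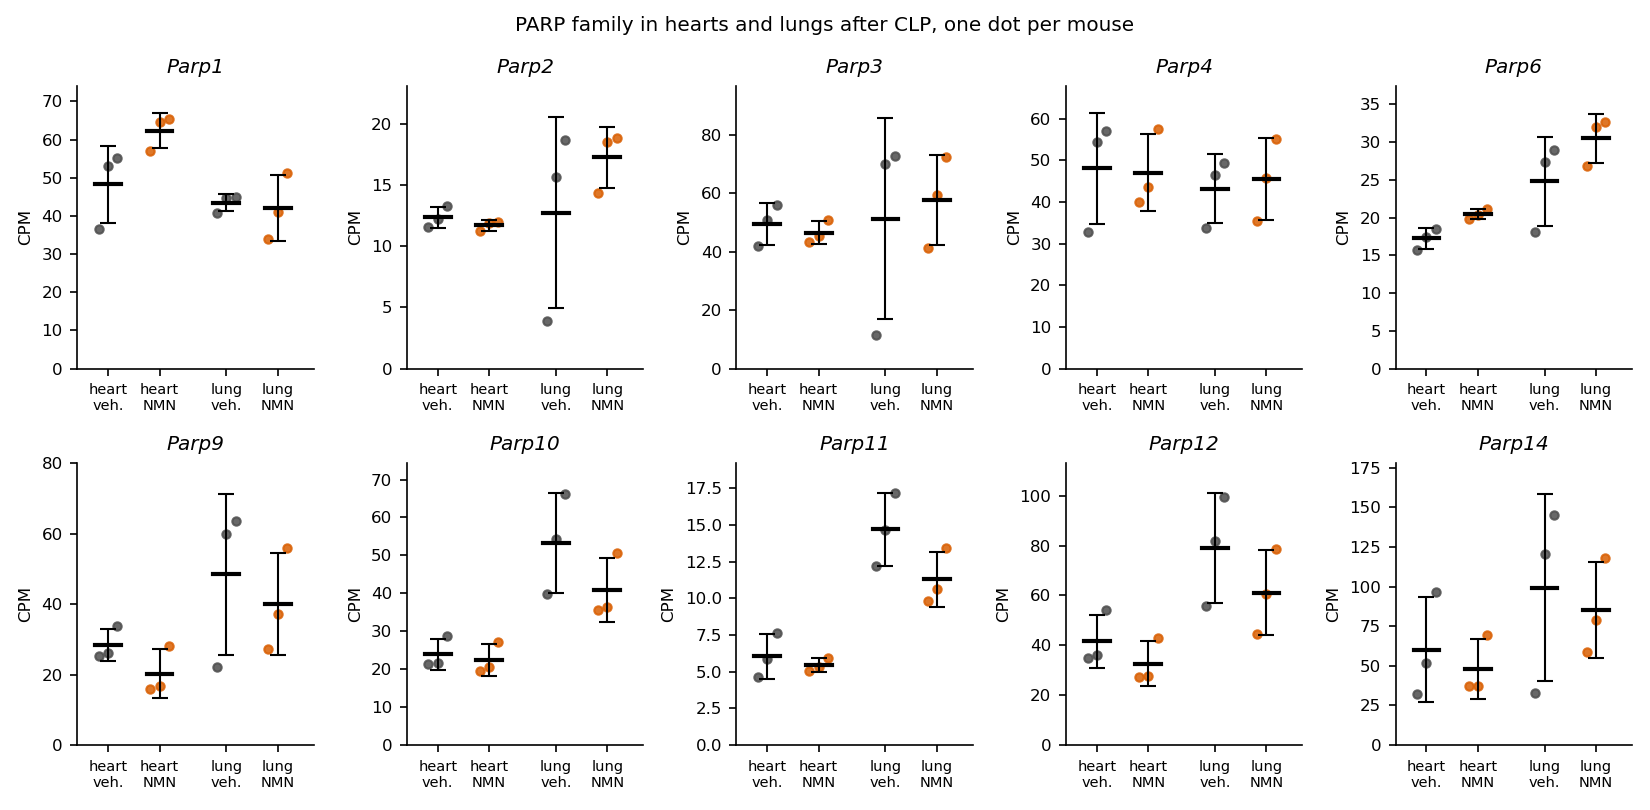
CPM of each PARP member in hearts and lungs of 3 vehicle (veh.) and 3 β-NMN (NMN) mice after CLP, 1 dot per mouse, with the mean as a line and the SD as an error bar on linear axes from 0. The low vehicle lung in Parp2, Parp3, Parp9 and Parp14 is replicate 2, and the heart groups were free of overlap for Parp1 and Parp6 alone.

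The interferon-induced genes had log2 fold changes below 0 in 22 of 25 cases in hearts (median -0.50) and in 24 of 25 in lungs (median -0.53), with 0 called and 1 and 2 at an unadjusted p below 0.05. By the difference of mean log2 CPM, 20 of 25 were below 0 in hearts and 22 of 25 in lungs. The medians depended on single libraries. With vehicle replicate 2 left out they were -0.62 for hearts and -0.92 for lungs (25 of 25 below 0 in each), but -0.24 (15 of 25) and -0.08 (16 of 25) without vehicle replicate 3. Without β-NMN replicate 3 they were -0.89 and -0.93. Mx1 was at -0.92 (SE 0.61) in hearts and -0.74 (1.03) in lungs, Mx2 at -0.96 (0.46) and -0.62 (0.71), Irf9 at -0.48 (0.23) and -0.35 (0.37), Stat2 at -0.59 (0.34) and -0.34 (0.64), and Dtx3l at -0.23 (0.30) and -0.33 (0.40). In lungs the direction of Mx1 was not settled, since its difference of mean log2 CPM was 0.15, the lung of vehicle replicate 2 held 1 read of it, and leaving out 1 library gave log2 fold changes from -1.51 to 0.19. Stat2 in lungs ranged likewise from -0.79 to 0.28, and Dtx3l in hearts from -0.49 to 0.11. The 5 interferon-induced PARP members were below 0 in both organs as well, and none was called. Leaving out 1 library turned the sign of some of them. In hearts Parp10 reached 0.070, Parp11 0.058 and Parp14 0.20, and in lungs Parp14 reached 0.16. The other lists had 0 genes called in either organ. Among the genes named, Tiparp in hearts had 24.4 to 59.9 CPM with vehicle and 14.1 to 15.7 CPM with β-NMN without overlap (-1.30, SE 0.35, edgeR adjusted p = 0.435), while in lungs it was at 0.06. The heart at 59.9 CPM was vehicle replicate 2, without which the log2 fold change was -0.77 (edgeR adjusted p = 0.109). Tnks was at 0.05 and 0.13, Zc3hav1 at -0.45 and -0.25, Macrod1 at 0.44 and 0.37, Adprh at 0.03 and -0.11, Nudt16 at -0.02 and 0.10, Adprhl2 at -0.03 and 0.11, Parg at 0.00 and -0.26, Tdp1 at 0.39 and 0.34 and Aptx at 0.00 and 0.11 in hearts and lungs. Without vehicle replicate 2, Macrod1 was at 0.15 and 0.13, Tdp1 at 0.21 and 0.10, and Parg in lungs at -0.06. Leaving out 1 library turned the sign of Tnks, Nudt16 and Adprhl2 in both organs, of Adprh, Parg and Aptx in hearts and of Tiparp in lungs. Fen1 was at -1.82 (SE 0.73) in hearts and -0.81 (0.93) in lungs. The heart value rested on vehicle replicate 2, at 4.53 CPM beside at most 0.86 CPM in the other hearts, and was -0.50 without it. The tissues are in separate tables, and no difference between peritoneal cells and the organs was tested.

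Finally, the organs were compared with each other over the 12 CLP libraries, in a fit of group means that left out the pairing by mouse. The median of all genes was 0.14 higher in lung on the log2 scale (0.12 with the size factors of DESeq2), and each member's change is also given relative to that shift. In this comparison 64.8% of 18318 genes were called, 35.9% as higher and 28.9% as lower in lung, whereas 1 PARP member was higher and 2 were lower. Parp1 had 45.6 to 82.8 CPM in hearts (median 70.7) and 26.4 to 40.7 CPM in lungs (median 34.9) when both organs were scaled together. It was lower in the lung than in the heart of all 6 mice, by a log2 fold change of -1.03 (SE 0.16, edgeR adjusted p = 1.15e-04), or -1.17 relative to the median gene. Parp4 had 40.7 to 72.9 CPM in hearts and 24.8 to 44.0 CPM in lungs and was lower in all 6 lungs too (-0.77, SE 0.20, edgeR adjusted p = 0.00496, -0.91 relative to the median gene). Parp11 had 5.74 to 9.61 CPM in hearts and 7.63 to 12.6 CPM in lungs and was higher in the lungs of all 6 mice (0.49, SE 0.17, edgeR adjusted p = 0.0277, 0.35 relative to the median gene). The call of Parp11 was missed when any 1 mouse except vehicle replicate 3 was left out, and its value fell to 0.25 without vehicle replicate 2. Parp10 was also higher in the lungs of all 6 mice but did not pass (0.35, SE 0.18, edgeR adjusted p = 0.118, 0.20 relative to the median gene). Parp3 was lower in all 6 and did not pass (-0.47, SE 0.36, edgeR adjusted p = 0.268, -0.61 relative to the median gene), but without vehicle replicate 2 it passed at -0.40 (edgeR adjusted p = 0.0225). Parp2 was at -0.35 (SE 0.30), Parp6 at -0.12 (0.15), Parp9 at 0.22 (0.29), Parp12 at 0.25 (0.22) and Parp14 at 0.12 (0.39), and none of the 5 passed. Relative to the median gene these were -0.49 for Parp2, -0.26 for Parp6, 0.08 for Parp9, 0.11 for Parp12 and -0.02 for Parp14, which thus turned sign. Without vehicle replicate 2, Parp2 was at -0.22 and Parp14 at 0.07 before that shift. With the mouse as a block, Parp3 was at -0.67 (SE 0.33), Parp12 at 0.23 (SE 0.14) and Parp14 at 0.05 (SE 0.19), with no call of a member changed.

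Whether the β-NMN effect differed between lungs and hearts was tested as an interaction in the same libraries. No member passed, and 0% of 18318 genes were called (797 at an unadjusted p below 0.05, 14 by DESeq2). The differences, lung minus heart, ranged from -0.41 (SE 0.31) for Parp1 to 0.48 (SE 0.59) for Parp2, which was at 0.01 without the mouse of vehicle replicate 2. Their 95% confidence intervals spanned 0 in every case, and the interval of Parp1 reached from -1.08 to 0.27. With the mouse as a block, Parp1 was at -0.44 (SE 0.27) and Parp2 at 0.71 (SE 0.65), and no member passed.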

How the data were processed

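Poly(A) RNA of peritoneal cells, hearts and lungs was sequenced, and the authors deposited read counts per gene symbol, unnormalized, in 1 table for peritoneal cells and 1 for the organs. Per the labels, reads were mapped to mm10 with STAR 2.7.3a and counted with featureCounts 2.0.0. The annotation and strand setting were not given in the sources used here, and overlapping genes may share reads.

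From the counts as deposited, every tissue had its own fit in edgeR 4.0.16 (R 4.3.3, filterByExpr, TMM, estimateDisp, older quasi-likelihood F-test), and calls are Benjamini-Hochberg adjusted p below 0.05 over all genes tested. CPM used TMM-scaled library sizes, log2 CPM a prior count of 2, and intervals are 95%. Samples are separate mice, and single members were also compared by exact two-sided permutation tests over mice. Exon lengths and positions are from GENCODE M21 on GRCm38. Pairs of libraries were checked for duplicates and none were found. Hearts and lungs of a number come from 1 mouse per the labels. Their within-group correlations of 0.06 to 0.17 cannot decide this, since different mice sharing only a number reached 0.24 in hearts and 0.30 in lungs. The mouse as a block changed no call of a member.

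The members, the gene lists and the rule for naming genes (all members, the 2 smallest p per direction of each list in peritoneal cells, Dtx3l, Parg and the 3 most alike genes) were chosen with earlier results of these data known. Of the genes so named, 2 are not reported here. Alternatives were the size factors of DESeq2 1.42.0, no low-count filter, DESeq2, the newer quasi-likelihood form, limma-voom (limma 3.58.1), a replicate block, both organs in 1 fit and leaving out each library. Fits to libraries under or over 60000000 counts, and the listed genes without each library and by mean log2 CPM, were added after seeing the data. The scripts were tested on simulated data.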

Additional observations from a re-analysis of the deposited data

Results flagged for a closer look

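In the β-NMN peritoneal cells, replicate 6 lay apart from the other 5 mice in 4 members. Its Parp1 level was the lowest, at 4.47 CPM beside 7.06 CPM for the next, a gap of 0.838 of the group's range. It was the highest in Parp4 (103.0 CPM beside 79.3 CPM, a gap of 0.682 of the range), in Parp9 (423.8 CPM beside 281.5 CPM, 0.789) and in Parp14 (4190 CPM beside 2718 CPM, 0.787). Each gap is above the 95% limit of Dixon's test for 6 samples, which chance passes in about 1 of 20 groups, and 4 of the 20 groups examined passed it, all through this library. Without it, Parp9 fell by 0.60 on the log2 scale in place of 0.48, and Parp4 rose by 0.36 in place of 0.42, with both calls kept.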

How the results depend on the processing

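The 6 members called in peritoneal cells kept their direction under all alternatives, and their calls when any single library was left out. Parp9 lost its call in the fit to libraries under 60000000 counts, where 4244 genes were called, and Parp4 and Parp10 lost theirs in the fit to those over 60000000, where Parp14 was at -0.12. Same-numbered vehicle and β-NMN mice share only a number. With the replicate block, 6 members and 7010 genes were called in peritoneal cells, and 0 members in hearts and lungs. With the mouse as the replicate block, 3 members and 11408 genes differed between lung and heart. In hearts, 3 genes were called without the low-count filter, 262 by DESeq2 and 3 by limma-voom, and between 0 and 5 when 1 library was left out. In lungs, DESeq2 called 9 genes and limma-voom 7. The interaction had 2 genes called without the filter and 14 by DESeq2. The cause of these differences was not tested.

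With limma-voom, 6 members in place of 3 differed between lung and heart, and members that were not called turned sign: Parp12 (-0.080) and Parp14 (-0.14) in peritoneal cells, Parp3 (-0.10) and Parp4 (-0.071) in lungs, and Parp6 (-0.17), Parp11 (0.14) and Parp12 (0.089) in the interaction. Parp6 in the interaction was also at -0.030 with the size factors of DESeq2 and at -0.043 with DESeq2. Leaving out 1 library or mouse turned the sign of further uncalled values. In peritoneal cells, Parp12 ranged from -0.0079 to 0.094 and Parp14 from -0.081 to 0.13. In hearts, Parp3 ranged from -0.21 to 0.0064, Parp4 from -0.25 to 0.11, Parp10 from -0.24 to 0.070, Parp11 from -0.31 to 0.058 and Parp14 from -0.69 to 0.20. In lungs, Parp1 ranged from -0.21 to 0.083, Parp3 from -0.30 to 0.50, Parp4 from -0.088 to 0.22 and Parp14 from -0.63 to 0.16. Between lung and heart, Parp14 ranged from -0.021 to 0.17. In the interaction, Parp3 ranged from -0.12 to 0.56, Parp4 from -0.15 to 0.26, Parp6 from -0.089 to 0.15, Parp9 from -0.080 to 0.51, Parp11 from -0.36 to 0.035, Parp12 from -0.13 to 0.12 and Parp14 from -0.039 to 0.35. Lungs had the fewest counts and the widest SE among the tissues. In simulated data, planted log2 changes of 1 were recovered for 73% of genes in peritoneal cells, 20% in hearts and 0% in lungs. The interaction recovered 0%. Changes of the size seen in peritoneal cells could thus be missed in both organs and in the interaction.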
